A study of Mus musculus with 6 samples.

Results

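The genes of oxidative phosphorylation were followed in ovarian granulosa cells (GCs) of the mouse after cyclophosphamide (CTX). Protein-coding genes were taken by their symbols, which gave 98 genes of the 54532 in the table, 85 of them encoded in the nucleus and 13 in the mitochondrial genome (mt- genes). By complex, the nuclear genes numbered 35 for complex I, 4 for complex II, 8 for complex III, 20 for complex IV and 18 for complex V. The symbols did not take Ndufab1 or the assembly factors of complex I. RNA-seq was done on 6 samples. All mice were 3-week-old ICR females primed with 5 IU of PMSG, a gonadotropin that makes follicles grow. After 22 h they received PBS (3 samples) or CTX, an alkylating drug, at 120 mg/kg (3 samples), and GCs were collected 6 h later. Each sample pooled the GCs of 3 mice, and the PBS mice carried the same PMSG priming, so no unprimed ovary was compared. The comparison asks how CTX treatment changed the transcripts of the respiratory chain. p-values measure the spread between these pools.

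The respiratory chain sits in the inner mitochondrial membrane. Complex I (NADH dehydrogenase) and complex II (succinate dehydrogenase) feed electrons to ubiquinone, complex III passes them to cytochrome c, and complex IV (cytochrome c oxidase) hands them to oxygen. Complex V, the ATP synthase, uses the proton gradient that complexes I, III and IV build. Mitochondrial DNA encodes core subunits of complexes I, III, IV and V, and nuclear genes encode the other subunits, including all of complex II. GCs use both glycolysis and respiration while follicles grow.

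Values are FPKM (fragments per kilobase of gene, scaled to sequencing depth, as deposited), and fold changes are on the log2(FPKM + 0.1) scale, where the pseudocount 0.1 understates changes of low genes. Rebuilt read totals were 16005869 to 17790353 in PBS samples and 17727770 to 18455011 in CTX samples. CTX replicate 2 stood apart from the other 5 samples, at 74.7 on a first principal component that held 46.8% of the variance, with the others between -26.6 and 13.2. The GC markers Inha, Fst and Nr5a2 were present in all samples, and Cyp19a1 (aromatase) was at 60.0, 59.2 and 62.4 FPKM in PBS samples and at 47.6, 6.61 and 32.5 in CTX samples. Of the 8 GC markers, 0 passed the test and the median log2 fold change was -0.43. Every CTX sample was below every PBS sample in 5 of them and above in 1, against 14.1% and 15% of all tested genes, and their summed FPKM was 10924 to 12082 in PBS samples and 9822 to 10452 in CTX samples. Summed theca markers (5 genes) were 147 to 150 FPKM in PBS samples and 163, 10.8 and 71.8 in CTX samples. Summed stroma markers (4 genes) were 12.6 to 13.4 in PBS samples and 25.2, 6.00 and 20.1 in CTX samples. Summed oocyte markers (7 genes) were 32.6 to 68.4 and 45.3 to 82.7, summed erythroid markers (5 genes) 319 to 454 and 138 to 497, and summed leukocyte markers (6 genes) 16.5 to 18.4 and 19.5 to 56.5. Markers of endothelium (5 genes), adipocytes (5 genes) and muscle (6 genes) summed to at most 5.45, 0.824 and 2.06 FPKM in any sample. In pooled cells, fewer cells of a type and less RNA per cell cannot be told apart.

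Nuclear OXPHOS transcripts differed little between CTX and PBS. Genes averaging 0.5 FPKM or more were tested, which took in 80 of the 85 nuclear genes and all 13 mt- genes. Under the study's rule of more than 2-fold and adjusted p under 0.05 (limma, Benjamini-Hochberg over 14463 genes), 1 nuclear gene, Cox6b2, was upregulated and 0 were downregulated, where 0.802% and 0.159% of all tested genes were. At any fold the counts were again 1 and 0, against 1.4% and 0.36% of all tested genes. At an unadjusted p under 0.05, 7 nuclear genes (8.75%) and 2840 genes in all (19.6%) passed. Of the 7, 2 belonged to complex I, 4 to complex IV and 1 to complex V. limma's voom on rebuilt reads also called Cox6b2 higher and 0 lower. Exonic bases were shared with another annotated gene in 30 of the 85 nuclear genes, mostly on the opposite strand, and such reads cannot be told apart where the strand was not kept. The median log2 fold change was -0.04 over the nuclear genes and -0.01 over all tested genes. The 95% intervals of 76 of the 80 nuclear genes lay within a 2-fold change in either direction, and those of 73 lay within 1.5-fold. Over all tested genes, 76.1% of intervals lay within 2-fold, and over tested protein-coding genes 83.6%. The nuclear genes were also higher in level, with a median of 60.0 FPKM against 6.15 over all tested genes. The part of level in the width of the intervals was not tested. The 4 genes outside were Cox6b2, Cox4i2, Ndufa4l2 and Cox7a1, all of them isoforms with restricted expression.

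**Figure D1:**
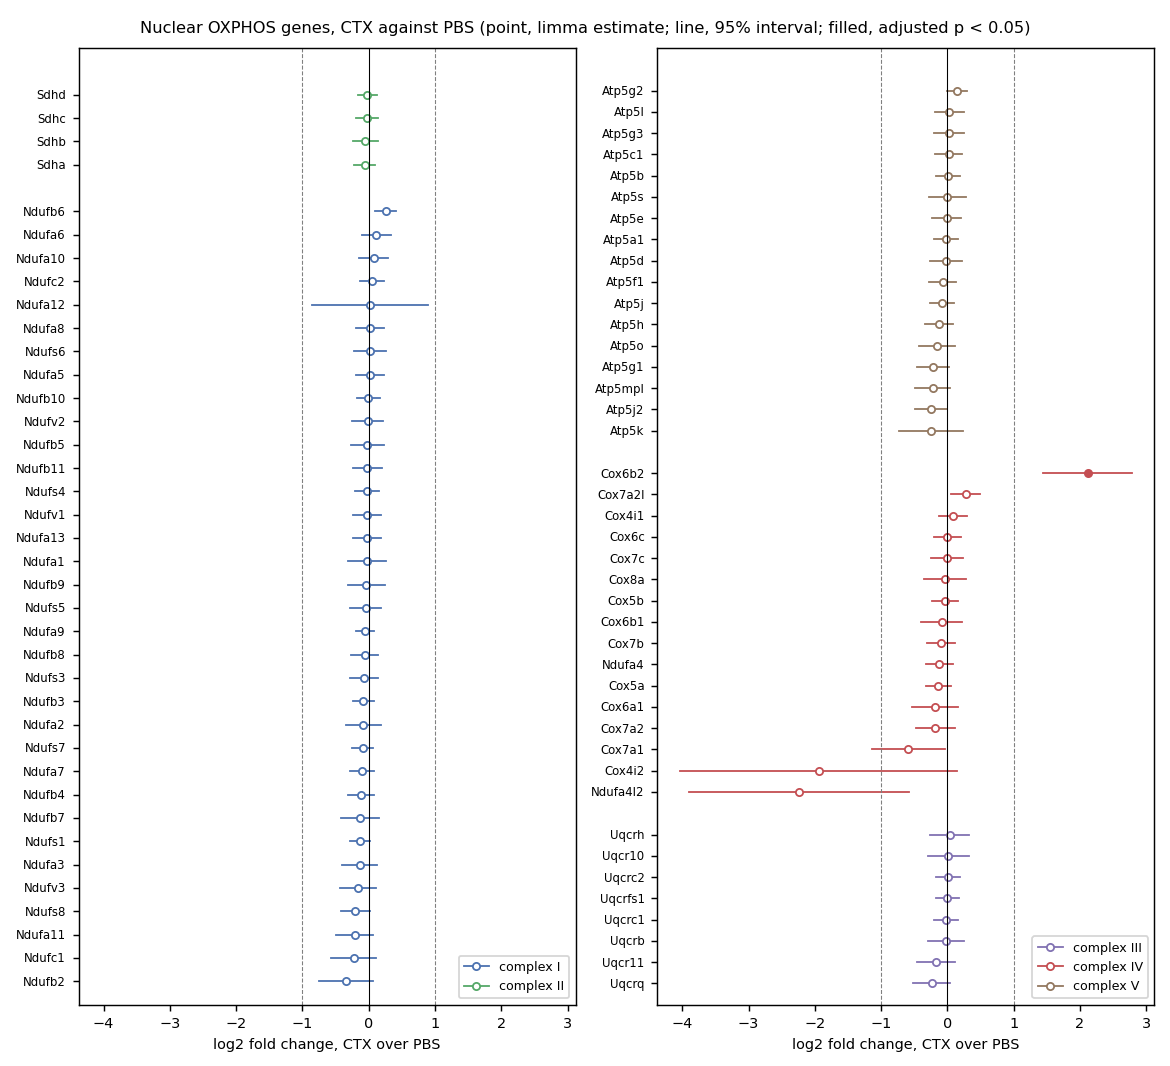
Log2 fold change of CTX over PBS (horizontal axis) for 79 of the 80 tested nuclear genes, grouped by complex, with the limma estimate as a point and its 95% interval as a line. Dashed lines mark a 2-fold change. Cox6b2 is the filled point at 2.11, and of the genes drawn only Cox6b2, Cox4i2, Ndufa4l2 and Cox7a1 have intervals that reach past the dashed lines.

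Complex I oxidises NADH through a flavin and iron-sulphur centres held by its core subunits. The nuclear core genes Ndufs1, Ndufs3, Ndufs7, Ndufs8, Ndufv1 and Ndufv2 had log2 fold changes from -0.20 to -0.01, and 0 of them passed the test. Ndufs1, the largest subunit, was at 13.6, 12.9 and 12.9 FPKM in PBS samples and at 12.2, 11.6 and 12.1 in CTX samples, with a log2 fold change of -0.13 and a 95% interval from -0.28 to 0.02, and every CTX sample was below every PBS sample. Ndufs7 and Ndufs8, which carry iron-sulphur centres close to ubiquinone, also lay lower in every CTX sample, at log2 fold changes of -0.09 and -0.20. Ndufv1, the flavin and NADH-binding subunit, and its neighbour Ndufv2 overlapped between groups at -0.02 and -0.01.

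The 28 supernumerary genes of complex I ranged from -0.34 to 0.25, and 0 passed the test. Ndufa2 had the highest mean level of the nuclear complex I genes (137 FPKM) and Ndufb2 the lowest (1.48 FPKM). Ndufb2 is listed with a gene length of 5628 bases, which enters its FPKM as a divisor. Its values were 1.52, 1.90 and 1.58 in PBS samples and 1.32, 1.11 and 1.44 in CTX samples, a log2 fold change of -0.34 (SE 0.17) with groups that did not overlap. Ndufb6 was at 44.8, 46.8 and 50.4 FPKM in PBS samples and at 55.01, 56.8 and 57.5 in CTX samples. It lay higher in every CTX sample, with a log2 fold change of 0.25 (SE 0.07; limma adjusted p = 0.136 by Benjamini-Hochberg), and 257 of its 659 exonic bases overlap Smim27 on the opposite strand. Ndufa6 had a log2 fold change of 0.11 with overlapping groups. Ndufa12 was at 19.6, 12.6 and 14.9 FPKM in PBS samples and at 10.7, 27.5 and 13.2 in CTX samples, so that CTX replicate 2 was the highest of all and CTX replicate 1 the lowest.

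Complex II also works in the TCA cycle, and 0 of its 4 genes passed the test, adjusted or not. Sdha, the flavoprotein, was at 72.6, 68.7 and 72.9 FPKM in PBS samples and at 69.9, 65.2 and 70.1 in CTX samples. Log2 fold changes of Sdha, Sdhb (iron-sulphur subunit), Sdhc and Sdhd (membrane anchors) were -0.06, -0.05, -0.03 and -0.02, and all 4 intervals stayed within 1.5-fold. Sdhd had the highest mean level (83.3 FPKM) and Sdhc the lowest (25.6 FPKM).

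Complex III had 8 nuclear genes with log2 fold changes from -0.24 to 0.04, and 0 passed the test. The core proteins Uqcrc1 and Uqcrc2 were at -0.02 and 0.01, with 95% intervals from -0.20 to 0.16 and from -0.17 to 0.19. Uqcrfs1, the Rieske iron-sulphur protein, averaged 99.6 ± 5.99 FPKM in PBS samples and 99.3 ± 3.18 in CTX samples (SD, n = 3 each). Uqcr10, a small subunit, had the highest mean level (145 FPKM) and Uqcrc1 the lowest (50.5 FPKM).

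Complex V makes ATP, with its catalytic head formed by Atp5a1 and Atp5b. Atp5b, at the highest mean level of the nuclear complex V genes (330 FPKM), was at 327, 316 and 346 FPKM in PBS samples and at 323, 340 and 326 in CTX samples, with a log2 fold change of 0.00 and a 95% interval from -0.18 to 0.18. Atp5a1 had a log2 fold change of -0.02 (95% interval from -0.20 to 0.16). Atp5k, a small membrane subunit, was at 66.6, 80.1 and 102 FPKM in PBS samples and at 82.6, 55.9 and 69.8 in CTX samples, and its groups overlapped. Atp5s had the lowest mean level of the tested genes (5.22 FPKM), and a second row named Atp5o was at 0 in all 6 samples.

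Subunit c of the ATP synthase ring is encoded by Atp5g1, Atp5g2 and Atp5g3, whose mature proteins are identical. Atp5g3 gave 63.0 ± 1.04% of their summed FPKM in PBS samples and 61.6 ± 1.78% in CTX samples. Atp5g2 gave 33.1 ± 1.12% and 35.1 ± 1.41%, and Atp5g1 gave 3.97 ± 0.0958% and 3.29 ± 0.376% (SD, n = 3 each). Atp5g2 was at 119, 112 and 122 FPKM in PBS samples and at 130, 131 and 130 in CTX samples, all above PBS, with a log2 fold change of 0.14 (SE 0.06; limma adjusted p = 0.271 by Benjamini-Hochberg).

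Complex IV held the genes with the largest changes. Its 12 tested genes that are not restricted isoforms ranged from -0.19 to 0.27, and 0 of them passed the test. Cox4i1, the regulatory subunit common to most tissues, was at 212, 205 and 242 FPKM in PBS samples and at 229, 228 and 238 in CTX samples. Cox5a and Cox5b, also nuclear subunits of complex IV, had log2 fold changes of -0.14 and -0.04. Cox6a1 had the highest mean level of all nuclear genes (473 FPKM), at 474, 472 and 560 FPKM in PBS samples and at 513, 374 and 445 in CTX samples, and its groups overlapped. Cox7a2l, which acts in joining complexes III and IV, was at 85.7, 88.4 and 102 FPKM in PBS samples and at 108, 119 and 106 in CTX samples. Every CTX sample was higher, with a log2 fold change of 0.27 (SE 0.09; limma adjusted p = 0.191 by Benjamini-Hochberg).

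Cox6b2, the isoform of Cox6b1 known from testis, was upregulated. It was at 4.20, 4.82 and 3.96 FPKM in PBS samples and at 18.9, 12.8 and 28.3 in CTX samples. All CTX samples were above all PBS samples, with a log2 fold change of 2.11 (SE 0.28; limma adjusted p = 0.0218 by Benjamini-Hochberg), that is 4.32-fold with a 95% interval from 2.72-fold to 6.87-fold. These values rest on 83, 98 and 71 rebuilt reads in PBS samples and 380, 251 and 562 in CTX samples. Its level was 2.49 ± 0.484% of that of Cox6b1 in PBS samples and 12.0 ± 4.42% in CTX samples, and Cox6b1 itself had a log2 fold change of -0.09. The call was kept in 3 of 6 fits that left out 1 sample. It was lost when PBS replicate 1, 2 or 3 was left out, at limma adjusted p = 0.112, 0.102 and 0.12, and the log2 fold change then stayed between 2.05 and 2.19. Those 3 fits called 78, 74 and 70 genes in all (0.54%, 0.513% and 0.484%), against 254 (1.76%) with every sample kept.

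Cox6b2 lies on chromosome 7 at 4751792 to 4753094 (minus strand, mm10, as listed in the table) with 9 annotated transcripts, and Cox6b1 lies on the same chromosome at 30616861 to 30626151 (minus strand). Neither shares exonic bases with another gene. The promoters of this pair, from RefSeq on GRCm38.p6, are shown because Cox6b2 passed the test and Cox6b1 did not. Each covers 250 bases before the start of transcription and 50 after it, 5′ to 3′ on the gene's strand.
Cox6b1 (chr7:30626065-30626364): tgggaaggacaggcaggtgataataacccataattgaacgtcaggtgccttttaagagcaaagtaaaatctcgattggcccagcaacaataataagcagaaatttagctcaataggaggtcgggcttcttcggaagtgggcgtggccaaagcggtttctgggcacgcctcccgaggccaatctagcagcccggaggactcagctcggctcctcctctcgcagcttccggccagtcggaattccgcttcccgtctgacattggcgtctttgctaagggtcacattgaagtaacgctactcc
Cox6b2 (chr7:4753045-4753344): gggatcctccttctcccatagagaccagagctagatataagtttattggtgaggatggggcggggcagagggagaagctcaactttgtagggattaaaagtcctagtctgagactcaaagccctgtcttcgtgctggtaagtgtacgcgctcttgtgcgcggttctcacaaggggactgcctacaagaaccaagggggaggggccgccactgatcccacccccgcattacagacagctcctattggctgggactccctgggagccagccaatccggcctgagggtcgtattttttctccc

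Motifs of the factors that are best known at nuclear OXPHOS promoters were searched by exact letters on both strands, the NRF1 core GCGCATGC, the ETS core CCGGAAGT bound by GABP, the YY1 core AAGATGGC and the ERR element TCAAGGTCA. Neither Cox6b promoter held any of the 4. RefSeq promoters were matched for 66 of the 84 nuclear symbols. The NRF1 core was found in 10 of the 66 (15.2%), against 2.78% of all 27025 promoters and 5.64% of those of tested protein-coding genes. The YY1 core was found in 8 (12.1%; 2.86% and 4.87%), the ETS core in 5 (7.58%; 3.93% and 8.53%) and the ERR element in 2 (3.03%; 0.407% and 0.286%). A total of 24 members held at least 1 of them (36.4%, against 18.02% of promoters of tested protein-coding genes). The genes with the highest mean level among those with an NRF1 or a YY1 core were Cox6a1 and Ndufa3, whose log2 fold changes were -0.19 and -0.14, and their promoters are shown with the motif in capitals. In Cox6a1 a pair of overlapping NRF1 cores, 1 on each strand, forms the capitals.
Cox6a1 (chr5:115348909-115349208, minus strand): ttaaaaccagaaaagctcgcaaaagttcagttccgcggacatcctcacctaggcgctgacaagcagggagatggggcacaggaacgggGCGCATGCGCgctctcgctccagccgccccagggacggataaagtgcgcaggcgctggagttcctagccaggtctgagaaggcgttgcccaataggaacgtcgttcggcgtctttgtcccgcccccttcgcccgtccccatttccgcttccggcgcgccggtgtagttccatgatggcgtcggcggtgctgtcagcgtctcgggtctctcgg
Ndufa3 (chr7:3617123-3617422, plus strand): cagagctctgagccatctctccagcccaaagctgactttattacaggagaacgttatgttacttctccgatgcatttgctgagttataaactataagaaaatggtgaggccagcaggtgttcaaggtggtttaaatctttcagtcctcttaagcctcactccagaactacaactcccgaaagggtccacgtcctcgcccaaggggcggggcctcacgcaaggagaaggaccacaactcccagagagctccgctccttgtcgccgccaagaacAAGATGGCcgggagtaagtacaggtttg

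Cox4i2 and Ndufa4l2, isoforms that other tissues raise at low oxygen, lay lower in every CTX sample without passing the test. Cox4i2 was at 19.9, 20.004 and 24.1 FPKM in PBS samples and at 13.4, 1.14 and 10.1 in CTX samples. The log2 fold change was -1.94 (SE 0.87; 95% interval from -4.03 to 0.15; limma adjusted p = 0.276 by Benjamini-Hochberg). Ndufa4l2, a paralogue of the complex IV subunit Ndufa4, was at 5.23, 4.88 and 5.58 FPKM in PBS samples and at 2.47, 0.257 and 1.48 in CTX samples. The log2 fold change was -2.23 (SE 0.69; limma adjusted p = 0.173 by Benjamini-Hochberg). In both genes CTX replicate 2 was the lowest of the CTX samples, with 16 and 5 rebuilt reads, and CTX replicate 1 was the highest.

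Without CTX replicate 2, Cox4i2 passed the test at a log2 fold change of -0.87 (limma adjusted p = 0.0367) and Ndufa4l2 at -1.40 (adjusted p = 0.0251), both by Benjamini-Hochberg. That fit called 3 of the 80 nuclear genes (3.75%) and 528 genes in all (3.65%), against 254 in all (1.76%) with every sample kept. The order of the 3 CTX samples, replicate 1 above replicate 3 above replicate 2, was the same in the summed theca markers, in Cyp19a1 and in the summed stroma markers given above. The summed glycolysis genes and the summed adipocyte markers had this order as well. So did the summed nuclear genes, those of complexes I, III, IV and V, and the assembly factors and p53 targets followed below. Sums of complex II, mt- genes, mitochondrial ribosome genes, mitochondrial RNA handling, electron carriers, the TCA cycle and biogenesis regulators had other orders. Over all tested genes, replicate 1 was the highest CTX sample in 37.2% and replicate 2 the lowest in 37.6%. Along the first principal component the samples lay in the same sequence, at -9.81, 13.2 and 74.7. Summed markers of GCs, oocytes, erythroid cells, leukocytes, endothelium and muscle had other orders. A pair of lists chosen after the values were seen also had replicate 1 highest and replicate 2 lowest, and is given as a description only. Summed pericyte markers (8 genes) were 5.28 to 5.62 FPKM in PBS samples and 12.995, 8.31 and 12.4 in CTX samples, above PBS. Of the 4 tested, 1, Notch3, was called higher, against 1.4% of all tested genes. Summed low-oxygen response genes (10 genes, Vegfa and Bnip3 among them) were 157 to 163 in PBS samples and 143, 81.4 and 123 in CTX samples. Of the 9 tested, 0 were called, against 1.4% higher and 0.36% lower over all tested genes. In 3 of the 9 every CTX sample was below every PBS sample (33.3%, against 14.1% of all tested genes). Cyp17a1, the enzyme that defines theca cells, was at 30.8, 32.9 and 34.4 FPKM in PBS samples and at 29.6, 1.25 and 12.4 in CTX samples. Of the 5 theca markers, 0 were called, 3 had log2 fold changes above 0 and 2 below, and the median was 0.40. Cyp17a1 was the 1 theca marker below PBS in every CTX sample (20%, against 14.1% of all tested genes). The part of those cell types, of those genes and of CTX replicate 2 in these values was not tested. As a share of its partner, Cox4i2 was 9.72 ± 0.297% of Cox4i1 in PBS samples and 5.86, 0.501 and 4.22% in CTX samples. Ndufa4l2 was 7.15 ± 0.286% of Ndufa4 in PBS samples and 3.46, 0.403 and 2.22% in CTX samples (SD, n = 3). Ndufa4 itself had a log2 fold change of -0.12. Ndufa4l2 (chromosome 10, 127514967 to 127517154, plus strand) shares 32 of its 1095 exonic bases with Shmt2 on the opposite strand.

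Cox7a1, the isoform of Cox7a2 known from heart and skeletal muscle, was at 5.66, 6.22 and 7.39 FPKM in PBS samples and at 5.16, 2.95 and 4.90 in CTX samples. Every CTX sample was lower, with a log2 fold change of -0.59 (SE 0.23; limma adjusted p = 0.235 by Benjamini-Hochberg), and CTX replicate 2 was again the lowest. The muscle isoforms Cox6a2 and Cox8b had at most 2 rebuilt reads in any sample, as did Cox7b2 and Cox8c, which are known from testis. Each of these 4 genes was therefore at or under a floor of 3 reads in all 6 samples. Their partners Cox6a1, Cox8a and Cox7b were between 61.8 and 560 FPKM in every sample, and Cox8a, Cox7b and Cox7a2 had log2 fold changes of -0.04, -0.10 and -0.19.

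**Figure D2:**
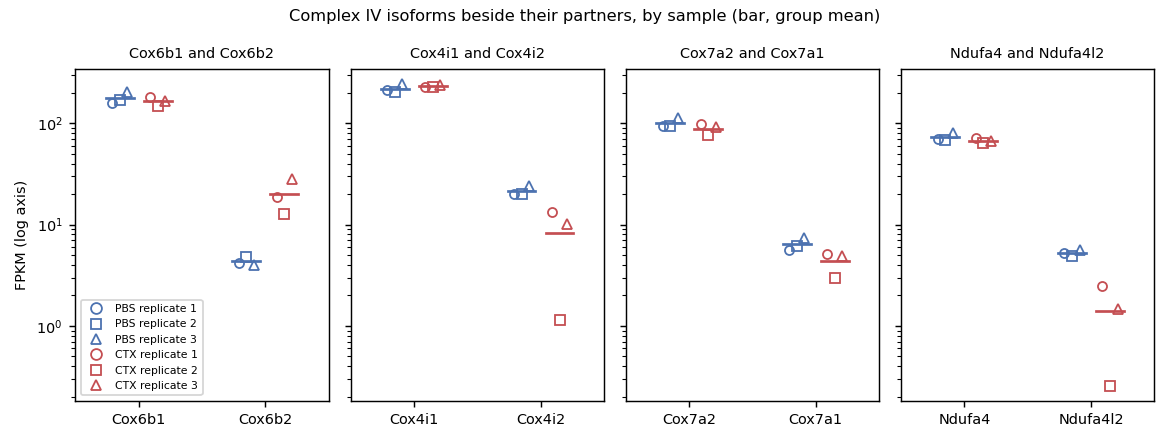
FPKM (log axis) of 4 complex IV isoforms beside their partners in each sample, with symbols for replicates and a bar for the group mean. The partners lie between 63.9 and 242 FPKM in both groups, Cox6b2 lies higher in all CTX samples, and Cox4i2, Cox7a1 and Ndufa4l2 lie lower, most so in CTX replicate 2.

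The samples of a group also differed among themselves. PBS replicate 3 was the highest of the PBS samples for 74 of the 80 nuclear genes (92.5%), whereas it was the highest for 36.6% of all tested genes. Relative to the other PBS samples its median log2 level was 0.21 higher over the nuclear genes and 0.00 over all tested genes. Related lists also had their highest PBS sum in PBS replicate 3. Mitochondrial ribosome genes were at 1626, 1637 and 1832 FPKM in PBS samples and assembly factors at 580, 571 and 631. Electron carriers, mitochondrial RNA handling, the TCA cycle and glycolysis had this too, whereas biogenesis regulators were lowest in PBS replicate 3. CTX replicate 2 was the lowest CTX sample for 50 of the 80 (62.5%), against 37.6% of all tested genes. Summed nuclear FPKM was 6242, 6238 and 7196 in PBS samples and 6597, 6036 and 6378 in CTX samples, so the groups overlapped, and the sums of each of the 5 complexes overlapped as well. Without PBS replicate 3 the median log2 fold change of the nuclear genes was 0.01.

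In 4 nuclear genes every CTX sample was above every PBS sample (5%, against 15% of all tested genes), and in 11 every CTX sample was below (13.8%, against 14.1%). The 4 were Cox6b2, Ndufb6, Cox7a2l and Atp5g2. Those below included Ndufs1, Ndufs7, Ndufs8, Ndufa9, Ndufb2, Cox4i2, Cox5a, Cox7a1, Ndufa4l2 and Atp5j2. Without PBS replicate 3 the counts were 14 above (17.5%, against 20.4% of all tested genes) and 11 below (13.8%, against 18.9%). Without PBS replicate 1 they were 4 above (5%, against 19.03%) and 19 below (23.8%, against 17.7%), and without CTX replicate 1 they were 4 (5%, against 23.7%) and 21 (26.2%, against 25.1%). Scaling to the 75th percentile gave 4 above (5%, against 12.8%) and 18 below (22.5%, against 17.2%).

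**Figure D3:**
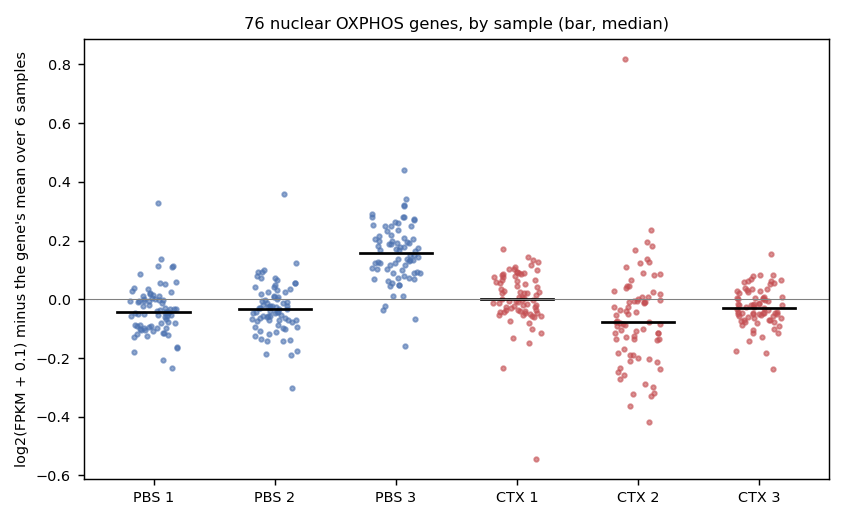
Deviation of each gene's log2(FPKM + 0.1) from its mean over the 6 samples (vertical axis), for the 76 tested nuclear genes other than Cox6b2, Cox4i2, Cox7a1 and Ndufa4l2, with the median of each sample as a bar. The median of PBS replicate 3 lies at 0.16, and the other 5 lie between -0.08 and 0.00.

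The 13 mt- genes are transcribed as long precursors from both strands of the mitochondrial genome and then cleaved. They took 2.80, 3.17 and 2.71% of rebuilt reads in PBS samples and 3.09, 3.03 and 3.30% in CTX samples, and the groups overlapped. 0 of the 13 passed the test (limma, adjusted p over all genes), against 1.4% of all genes higher and 0.36% lower. At an unadjusted p under 0.05, 2 passed (15.4%, against 19.6% of all tested genes). These were mt-Co3 and mt-Atp8, both among the 6 genes with uncertain counts described below. Their median log2 fold change was 0.13, with 12 above 0 and mt-Nd6 below. mt-Nd6, the one gene of the 13 on the minus strand, had a log2 fold change of -0.11. Scaling to reads outside mt- genes lowered the median to 0.10 and put mt-Co2, mt-Nd5 and mt-Cytb below 0.

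mt-Co1, the catalytic subunit of complex IV, was the highest, at 7829, 8709 and 7446 FPKM in PBS samples and at 9197, 9342 and 9844 in CTX samples. Every CTX sample was above every PBS sample, with a log2 fold change of 0.25 (SE 0.18; limma adjusted p = 0.461 by Benjamini-Hochberg). It took 43.5 ± 0.375% of all mt- protein-coding reads in PBS samples and 46.4 ± 1.12% in CTX samples (SD, n = 3), also without overlap. The sum behind this share includes 6 genes whose counts are uncertain, described below. Parts of mt-Co1 itself and of mt-Nd4 also match chromosome 1 copies. mt-Cytb, of complex III, was at 4019 to 4556 FPKM in PBS samples and 4072 to 4468 in CTX samples. Of the complex I genes, mt-Nd1 lay between 3965 and 4702 FPKM over the 6 samples, mt-Nd2 between 1923 and 2346, mt-Nd4 between 1279 and 1542, mt-Nd5 between 1200 and 1477, and mt-Nd6 between 1078 and 1336. Their log2 fold changes were 0.13, 0.16, 0.10, 0.02 and -0.11, and that of mt-Cytb was 0.03.

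The 6 genes that lie between mt-Co1 and mt-Nd4 on the mitochondrial genome were listed far lower. Their mean FPKM was 106 for mt-Co2 and 39.5 for mt-Co3 (both of complex IV), 61.7 for mt-Atp6 and 5.08 for mt-Atp8 (both of complex V), and 9.70 for mt-Nd3 and 30.3 for mt-Nd4l (both of complex I). The other 7 had means of 1248 to 8728. A search of their transcripts against GENCODE M21 found an unprocessed pseudogene for 5 of these 6 in 1 stretch of chromosome 1, from 24611535 to 24616197 (minus strand). Gm28661 matched mt-Co2 over 681 bases at 100% identity, Gm10925 matched mt-Atp6 over 678 at 100%, Gm28437 matched mt-Co3 over 783 at 100%, Gm28438 matched mt-Nd3 over 345 at 99.7% and Gm10222 matched mt-Nd4l over 294 at 100%. In the same stretch, Gm28439 matched 876 of the 1378 bases of mt-Nd4, and Gm29216 matched 483 of the 1545 bases of mt-Co1. mt-Atp8 had no annotated match of 95% identity, nor had mt-Cytb, mt-Nd1 and mt-Nd6, and 43 of the 204 bases of mt-Atp8 overlap mt-Atp6. However, mt-Atp8 lies between mt-Co2 and mt-Atp6. The chromosome 1 bases between their copies (24614651 to 24614885) were not searched, because the search covered annotated transcripts only.

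The first 61 bases of mt-Co2 are shown because its chromosome 1 copy has the same letters throughout. For mt-Nd3 and mt-Co1, the stretch around the single differing base is shown beside the copy, with that base in capitals (T3C for mt-Nd3 and A1066T for mt-Co1, the mt- base first, counted from the first base of the transcript).
mt-Co2 and Gm28661: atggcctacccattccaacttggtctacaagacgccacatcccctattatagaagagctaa
mt-Nd3: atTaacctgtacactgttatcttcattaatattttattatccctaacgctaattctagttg
Gm28438: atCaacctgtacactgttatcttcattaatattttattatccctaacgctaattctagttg
mt-Co1: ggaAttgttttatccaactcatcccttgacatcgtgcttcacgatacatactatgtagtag
Gm29216: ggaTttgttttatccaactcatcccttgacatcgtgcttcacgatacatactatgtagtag

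The 5 copies were listed at 11.5 to 73.2 FPKM. Gm28661 was at 59.4 to 73.2 FPKM over the 6 samples where mt-Co2 was at 74.7 to 167, and Gm28437 was at 29.95 to 34.1 where mt-Co3 was at 34.9 to 46.8. Gm28438 was at 35.3 to 46.4, above the 6.61 to 14.5 of mt-Nd3. Gm10925 was at 41.8 to 58.3 where mt-Atp6 was at 35.3 to 128, and Gm10222 was at 11.5 to 33.0 where mt-Nd4l was at 14.97 to 97.0. Less similar copies on chromosomes 2 and 13 were at 3.75 FPKM or lower. Reads that fit both places cannot be told apart, so the levels and changes of these genes are uncertain. The same limit holds for the matched parts of mt-Nd4 and mt-Co1, for the share of reads on mt- genes and for the share of mt-Co1 among them. How the counting treated such reads was not given in the sources used here.

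Within these genes, single samples stood out. mt-Nd4l was at 16.8, 17.8 and 14.97 FPKM in PBS samples and at 97.0, 15.8 and 19.5 in CTX samples, and mt-Atp6 was at 35.3, 48.1 and 69.4 and at 128, 43.7 and 46.0. In both, CTX replicate 1 was high and the other samples overlapped. mt-Atp8 was at 2.20, 2.67 and 3.03 FPKM in PBS samples and at 13.3, 4.70 and 4.65 in CTX samples, again highest in CTX replicate 1. The log2 fold change of mt-Atp8 was 1.31 (SE 0.41; limma adjusted p = 0.178 by Benjamini-Hochberg), on 8 to 10 rebuilt reads in PBS samples and 17 to 49 in CTX samples. mt-Co2 was highest in PBS replicate 2, at 167 FPKM against 74.7 and 82.6 in the other PBS samples. mt-Co3 was at 35.5, 34.9 and 36.1 FPKM in PBS samples and at 45.1, 38.5 and 46.8 in CTX samples, with a log2 fold change of 0.29 (SE 0.09; limma adjusted p = 0.17 by Benjamini-Hochberg). Without CTX replicate 2 it passed the test at 0.37 (limma adjusted p = 0.0288), in a fit that called 3.65% of all tested genes.

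**Figure D4:**
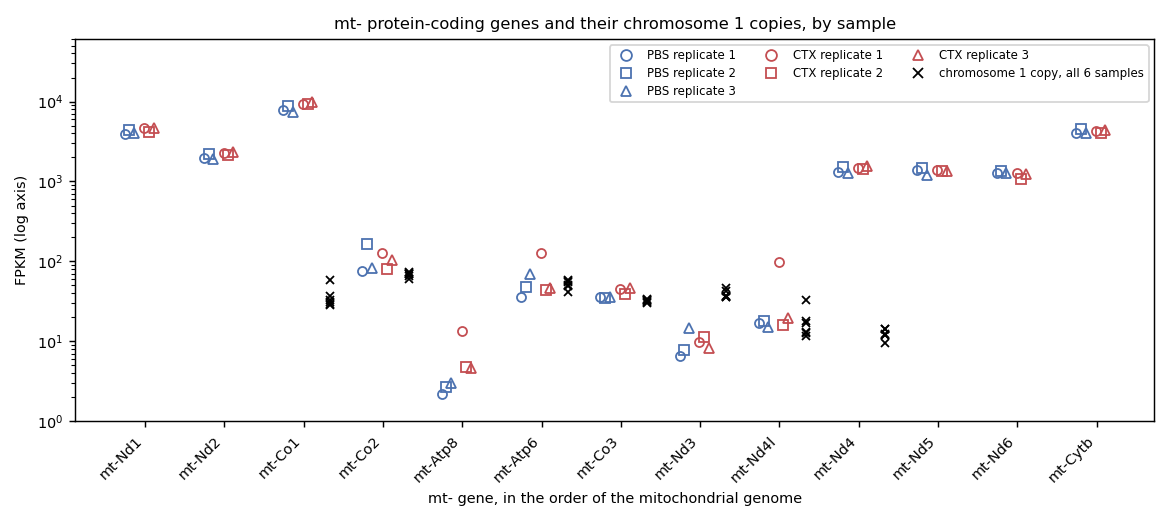
FPKM (log axis) of the 13 mt- genes in each sample, in the order of the mitochondrial genome, with crosses for the chromosome 1 copy of 7 of them. The 6 genes between mt-Co1 and mt-Nd4 lie far below the others, and 5 of them have copies at 11.5 to 73.2 FPKM.

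The genes that build, regulate and feed the chain were followed in lists. Of 77 tested mitochondrial ribosome genes, 48 assembly factors, 30 genes of mitochondrial transcription and RNA handling, 15 of electron carriers, 14 of the TCA cycle and 9 biogenesis regulators, 0 passed the test at any fold in either direction (limma, Benjamini-Hochberg), where 1.4% of all tested genes were called higher and 0.36% lower. At an unadjusted p under 0.05, 20 of these 193 genes (10.4%) passed, against 19.6% of all tested genes. voom on rebuilt reads, which called 289 of 14463 genes (2.00%), called 1 of the 193, Fastk, a mitochondrial RNA-binding protein, at -0.41 (limma voom adjusted p = 0.0438). The medians of these lists were -0.05, -0.07, -0.03, -0.08, -0.01 and 0.13. Esrra, a nuclear receptor that drives OXPHOS genes, was at 7.14, 7.43 and 7.76 FPKM in PBS samples and at 10.7, 9.06 and 10.05 in CTX samples, all above PBS (log2 fold change 0.41, SE 0.09; limma adjusted p = 0.0851 by Benjamini-Hochberg). Nrf1 and Gabpa, which activate nuclear OXPHOS genes, had log2 fold changes of -0.13 and -0.08, and Tfam, the mitochondrial transcription factor, 0.06. Polrmt, the mitochondrial RNA polymerase, lay lower in every CTX sample at -0.24. The coactivator Ppargc1a was at most 0.0751 FPKM in any sample and was not tested. Cyct, the testis cytochrome c, had the lowest value of the carriers (-1.35; limma adjusted p = 0.159), and the somatic Cycs was at -0.08. The highest and lowest log2 fold changes were 0.25 for Mrpl9 and -0.36 for Mrps21 among ribosome genes, 0.23 for Ndufaf2 and -0.92 for Lyrm7 among assembly factors, and 0.40 for Top1mt and -0.60 for Fastkd5 in mitochondrial RNA handling. They were 0.55 for Coq8a among the carriers, 0.29 for Suclg2 and -0.16 for Ogdh in the TCA cycle, and -0.16 for Gabpb2 among the regulators.

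In the glycolysis list of 22 genes, 3 passed the test lower and 1 higher, against 0.36% and 1.4% of all tested genes, and the median was -0.56. Gapdh had the lowest value, -1.17, with overlapping groups. Ldha, which makes lactate, was at 319, 307 and 343 FPKM in PBS samples and at 216, 191 and 198 in CTX samples (log2 fold change -0.68, SE 0.09; limma adjusted p = 0.0192). The phosphofructokinase genes Pfkl and Pfkp were downregulated at -0.76 and -0.47 (limma adjusted p = 0.0138 and 0.022). Pdk4, a kinase that holds back pyruvate entry into the TCA cycle, was at 6.11, 5.76 and 4.91 FPKM in PBS samples and at 13.2, 23.6 and 18.04 in CTX samples, a rise of 1.66 (SE 0.21; limma adjusted p = 0.0211, all by Benjamini-Hochberg). In 13 of the 22 every CTX sample was below every PBS sample, against 14.1% of all tested genes, and the difference between this list and the OXPHOS genes was not tested. Of 6 p53 targets that act on respiration, 4 were tested and 0 passed, adjusted or not. Fdxr (-0.31) and Tigar (-0.06) had the lowest and highest values, and Sco2 was listed at 0 in all samples.

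**Figure D5:**
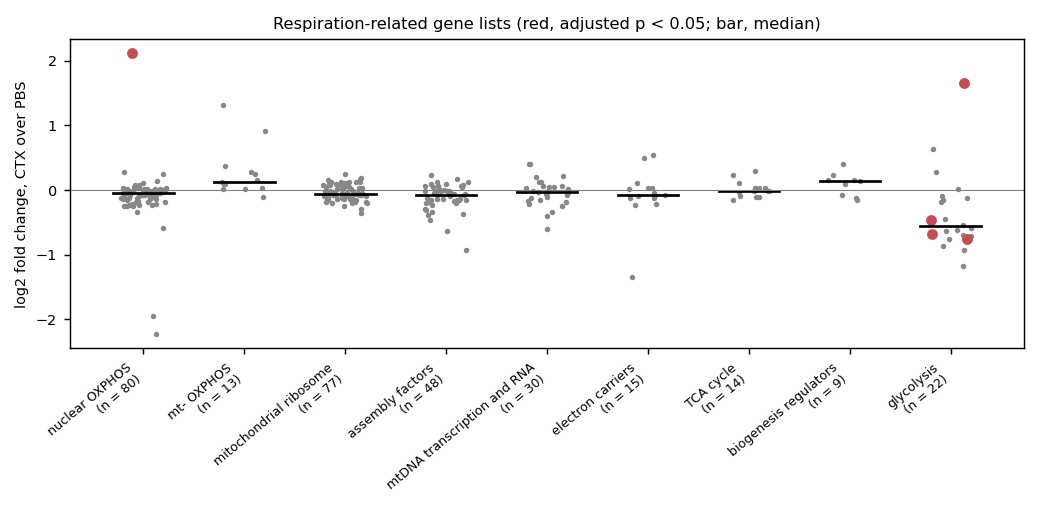
Log2 fold change of CTX over PBS (vertical axis) for each tested gene of the OXPHOS groups and 7 related lists, with the median as a bar and genes of adjusted p under 0.05 in red. Red points are Cox6b2 among the nuclear genes and 4 genes in glycolysis.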

How the data were processed

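RNA-seq was measured in 6 pools of mouse GCs, grouped by their labels. Per the study, libraries were made with a NEBNext kit and sequenced at a company (Novogene); strandedness was not given in the sources used here. The submitters' processing notes name fastp, HISAT2 2.0.5, featureCounts 1.5.0-p3, DESeq2 1.20.0 and the mm10 build. The authors deposited FPKM per gene and sample. The table also holds the authors' group means, log2 fold change, p-value and adjusted p-value of CTX against PBS, which were not used.

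Each gene's FPKM steps gave whole reads back in every sample (100% of low values whole within 0.02 reads), so read numbers are rebuilt from FPKM. log2(FPKM + 0.1) was compared with limma 3.58.1 (lmFit, eBayes with trend, R 4.3.3) in the 14463 genes averaging 0.5 FPKM or more, adjusted by Benjamini-Hochberg. The script was tested on simulated data. Intervals are 95% intervals of that fit. The floor was 3 reads per sample, which covers counting error only. Genes were named by a rule: all mt- genes, the highest and lowest nuclear gene of each complex, called genes, the 5 largest rises and falls, core subunits, restricted isoforms, and called or key genes of the lists. Other members (Ndufa3, Ndufa9, Ndufa12, Atp5j2), Cycs, Fastk and the copies were named after their values were seen. Copies were searched with BLAST 2.17.0 (at least 95% identity over 50 bases). Coordinates of 79 of the 85 nuclear genes equal those of GENCODE M21. Members and lists were chosen with earlier results of these data known. Protein sequences were not used here. Alternatives were other pseudocounts, filters, scalings and weights, voom on rebuilt reads, a replicate block and leaving out each sample. 1 member is not reported here.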

Additional observations from a re-analysis of the deposited data

How the results depend on the processing

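Beyond the leave-one-out fits, the number of nuclear genes past adjusted p changed with sample weights and with the block. Sample weights, which gave CTX replicate 3 a weight of 16.6 and CTX replicate 2 one of 0.163, called 4 nuclear genes higher, 9 lower and 3 past the study's rule, and 2 mt- genes, where 39.8% of all genes were called. The replicate block called 0 nuclear genes higher and 0 past the study's rule. Under the block Cox6b2 had a limma adjusted p of 0.117, and calls over all genes went from 254 to 53. The replicate numbers did not pair the samples, with correlations of 0.0556, 0.0242 and 0.00581 between deviations of same-numbered samples, and 3 of 6 samples closest to their own number. voom on rebuilt reads called 289 genes, Cox6b2 among them. Leaving out 1 sample gave 0 to 1 nuclear genes higher, 0 to 2 lower, 0 to 2 past the study's rule and 0 to 1 mt- genes. The same fits called from 70 genes in all (0.484%, without PBS replicate 3) to 528 (3.65%, without CTX replicate 2). With 1 sample left out, nuclear genes with every CTX sample above numbered 4 to 14, against 17.3% to 23.7% of all tested genes. Nuclear genes with every CTX sample below numbered 11 to 21, against 17.5% to 25.1%. Under 75th percentile scaling 18 lay below, against 17.2% of all tested genes. As a share of FPKM, mt- genes took 7.13% in PBS samples and 7.43% in CTX samples.

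Among 54 members followed by name, signs changed in 23, none of them called under the changed sign. The 18 nuclear genes had log2 fold changes within 0.0877 of 0 with the settings of the report, and the largest of the 5 mt- genes was mt-Atp6 at 0.37. The 75th percentile gave -0.0216 for Atp5b, -0.0121 for Uqcrc2, -0.0114 for Uqcr10, -0.00375 for mt-Co2 and -0.00628 for mt-Nd5. Scaling to reads outside mt- genes gave -0.00248 for Atp5g3, -0.00276 for Ndufa12, -0.0258 for Atp5b, -0.0163 for Uqcrc2, -0.0156 for Uqcr10, -0.00795 for mt-Co2, -0.0105 for mt-Nd5 and -3.53e-06 for mt-Cytb. Sample weights gave 0.0327 for Ndufs3, 0.0321 for Sdhb, 0.0414 for Ndufa2, -0.18 for Ndufa12, -0.0336 for Uqcrc2, 0.0712 for Cox8a, 0.00176 for Ndufv1, 0.0227 for Uqcrfs1, -0.11 for mt-Co2, -0.00487 for mt-Atp6, -0.0201 for mt-Nd3 and -0.0171 for mt-Nd5. Leaving out 1 sample gave ranges of -0.0904 to 0.00453 for Sdhb, -0.15 to 0.00625 for Ndufa2, -0.0224 to 0.0908 for Atp5g3, -0.38 to 0.30 for Ndufa12, -0.0726 to 0.0689 for Ndufv2, -0.0286 to 0.0375 for Atp5b, -0.0525 to 0.0205 for Atp5a1, -0.069 to 0.0268 for Uqcrc1, -0.0484 to 0.0436 for Uqcrc2, -0.11 to 0.0697 for Cox8a and -0.17 to 0.0201 for Cox6b1. They were -0.0896 to 0.0546 for Ndufv1, -0.0506 to 0.0355 for Uqcrfs1, -0.0989 to 0.054 for Atp5s, -0.0600 to 0.0216 for Sdhc, -0.0711 to 0.12 for Uqcr10, -0.0956 to 0.0126 for Cox5b, -0.20 to 0.38 for mt-Co2, -0.13 to 0.64 for mt-Atp6, -0.12 to 0.44 for mt-Nd3, -0.0663 to 0.0834 for mt-Nd5 and -0.00412 to 0.0864 for mt-Cytb. The causes were not tested. CTX replicate 2 and the low read numbers of Ndufa4l2 and mt-Atp8 limit what 3 samples per group can show.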
